A study of Mus musculus with 12 samples.

Results

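The nuclear genes for the subunits of oxidative phosphorylation were followed in mouse liver. They were taken as the symbols of the deposited table that begin with Ndufa, Ndufb, Ndufs or Ndufv and a digit, with Uqcr, with Cox4 to Cox8 or with Atp5, and Sdha, Sdhb, Sdhc and Sdhd. The pattern took 82 symbols, and the 76 with a mean log2 level of at least 4 over the 12 libraries are described here, among 12965 genes that passed that filter. Of these, 32 encode subunits of complex I, 4 of complex II, 8 of complex III, 13 of complex IV (with Ndufa4, a complex IV subunit despite its name) and 15 of complex V. The pattern also took 4 genes that were set apart as not being subunits in the strict sense: Cox7a2l, Ndufa4l2, Atp5s and Atp5sl. The 6 symbols below the filter were Cox4i2, Cox6a2, Cox8b, Cox7b2, Cox8c and Ndufs5. All livers came from wild-type C57BL/6 female mice. There were 4 groups of 3 libraries: females with ovaries (intact) given PBS as vehicle, intact females given the synthetic glucocorticoid dexamethasone at 1 mg/kg, ovariectomized females given vehicle, and ovariectomized females given dexamethasone at the same dose. Treatment lasted 6 h. Oestrogen comes mainly from the ovaries. The labels give neither the age of the mice nor the time since surgery. Nor do they state that each library is its own mouse, so a p-value here covers the spread among libraries of a group, which may be technical.

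Oxidative phosphorylation turns the oxidation of nutrients into ATP at the inner mitochondrial membrane. Complexes I and II pass electrons from NADH and succinate to coenzyme Q, complex III passes them on to cytochrome c and complex IV to oxygen, while complexes I, III and IV pump protons out of the matrix. Complex V, the ATP synthase, lets the protons back in and makes ATP. Complex II is encoded in the nucleus alone, whereas the other complexes join nuclear subunits to subunits made inside the mitochondrion from mitochondrial DNA. In the hepatocyte this system pays for gluconeogenesis, urea synthesis and the synthesis of plasma proteins. The mitochondrially encoded subunits are not analysed here.

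Promoters were read for 64 of the 76 genes from RefSeq's table (build GRCm38.p6), because nuclear respiratory factor 1 (NRF1) is known to bind the promoters of many such genes. In the 250 bases before the start, the NRF1 letters (GCGC, any base, then TGCGC) occurred on either strand in 12 genes (18.8%), against 9.05% of the 10328 tested genes with a promoter in the table. Among the 12 were genes that rose with dexamethasone in intact females, such as Ndufa5, Ndufa11 and Atp5h, as well as Sdha, which fell, and Atp5c1, which did not pass the test. The stretches below show the first 4 of these genes, read 5′ to 3′ in the direction of transcription. Capitals mark the matches to the NRF1 letters.
Ndufa5, chr6:24527662-24527761, minus strand, bases -235 to -136 from the start: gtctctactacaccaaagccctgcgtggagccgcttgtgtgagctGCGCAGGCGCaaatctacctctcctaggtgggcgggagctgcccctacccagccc
Ndufa11, chr17:56717657-56717756, plus strand, bases -105 to -6 from the start: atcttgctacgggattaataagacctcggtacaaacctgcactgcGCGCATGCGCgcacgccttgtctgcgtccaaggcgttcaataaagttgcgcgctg
Atp5h, chr11:115420006-115420105, minus strand, bases -186 to -87 from the start: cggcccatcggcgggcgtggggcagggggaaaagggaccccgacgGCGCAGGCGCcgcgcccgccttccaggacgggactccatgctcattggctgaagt
Sdha, chr13:74350284-74350383, minus strand, bases -143 to -44 from the start: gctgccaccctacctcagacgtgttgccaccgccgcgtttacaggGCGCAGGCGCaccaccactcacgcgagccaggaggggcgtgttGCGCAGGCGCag

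Other motifs were searched on both strands of the same 250 bases, each counted separately, so that matches of different motifs may overlap. The letters TCAAGGTCA, of the oestrogen-related receptors, occurred in 1 gene, Atp5g3 (1.56% of members against 0.32% of genes). The letters CCGGAAG, of ETS factors such as GABP, occurred in 12 (18.8% against 15.1%), and AAGATGGCG, of YY1, in 2 (3.12% against 1.36%). The letters GGGCGG, of SP1, occurred in 24 (37.5% against 62.2%) and CCAAT in 29 (45.3% against 40.3%). The paired letters of the glucocorticoid receptor (GNACA and TGTNC with any 3 bases between) were found in 0 of the 64 windows and in 0.32% of all. A match is a run of letters and not a measured binding site.

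Values are log2 levels as deposited, from which read counts cannot be recovered, so the depth is unknown. The median gene stood between 8.82 and 8.86 in every library. A difference is given as the log2 fold change ± its SE in limma, with n = 3 libraries a group. A gene is said to rise or fall, or to be higher or lower in ovariectomized females, where its Benjamini-Hochberg adjusted p over all 12965 genes was under 0.05. Hepatocyte markers were high throughout. The summed level of 7 genes was 22.18 to 22.32 in intact vehicle and 22.03 to 22.12 in intact dexamethasone. It was 22.03 to 22.16 in ovariectomized vehicle and 22.19 to 22.38 in ovariectomized dexamethasone. Intact vehicle thus lay above intact dexamethasone and ovariectomized vehicle. Dexamethasone gave 2 higher and 1 lower of the 7 in intact livers, and 3 higher and 0 lower after ovariectomy. For 4 of them the response was higher after ovariectomy. Of 5 stellate cell markers 3 rose with dexamethasone in intact females (summed level 12.27 to 12.65 with vehicle and 12.9 to 13.09 with dexamethasone). So did 2 of 5 sinusoidal endothelial markers. Of 5 adipose markers only Fabp4 passed the filter on the mean level, and it rose in the same comparison. The summed adipose level, in effect that of Fabp4, was 8.14 to 8.42 with vehicle and 9.14 to 10.63 with dexamethasone. All 4 B cell markers fell in that comparison (7.75 to 8.2 and 7.27 to 7.37). Of 5 Kupffer cell markers 4 were lower in ovariectomized vehicle (12.85 to 13.07) than in intact vehicle (13.31 to 13.4), and 2 of 5 cholangiocyte markers were higher there. The adipose markers Adipoq, Plin1, Ucp1 and Cidea and the muscle markers Acta1, Ckm, Myh4 and Myh2 were listed at or below 0 in every library. So were the globins Hba-a1, Hba-a2, Hbb-b1 and Hbb-b2, so such a listing is no measure of absence in this table. The part of these cell types in the results below was not tested, and in bulk tissue fewer cells of a type and less RNA per cell cannot be told apart.

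Intact females given vehicle had the lowest levels of most of these genes. With dexamethasone in intact females, 53 of the 76 members rose and 5 fell, with a median log2 fold change of 0.28 (1.22-fold). Among all genes tested 22.8% rose and 25.9% fell, with a median of 0.0013. Ovariectomy without dexamethasone gave counts of 49 members higher and 2 lower than in intact vehicle, median 0.27 (1.21-fold), against 12.4% and 15.5% of all genes. These comparisons share the 3 intact vehicle libraries, so they are not independent of each other. In ovariectomized females 6 members rose with dexamethasone and 1 fell, median 0.066, beside 21.3% and 19.4% of all genes. Under dexamethasone, 9 members were higher and 2 lower in ovariectomized than in intact females, median 0.022, beside 7.74% and 5.08% of all genes. Counted instead by libraries that did not overlap, 53 members were higher with dexamethasone in intact females (26.9% of all genes) and 27 in ovariectomized females (28.1%). By the same count 55 were higher in ovariectomized than in intact vehicle (20.7% of all genes) and 25 under dexamethasone (19.5%). Lower without overlap were 8 members with dexamethasone in intact females (28.6% of all genes), 3 in ovariectomized females (26.5%), 5 in ovariectomized against intact vehicle (24.4%) and 15 under dexamethasone (14.6%).

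**Figure D1:**
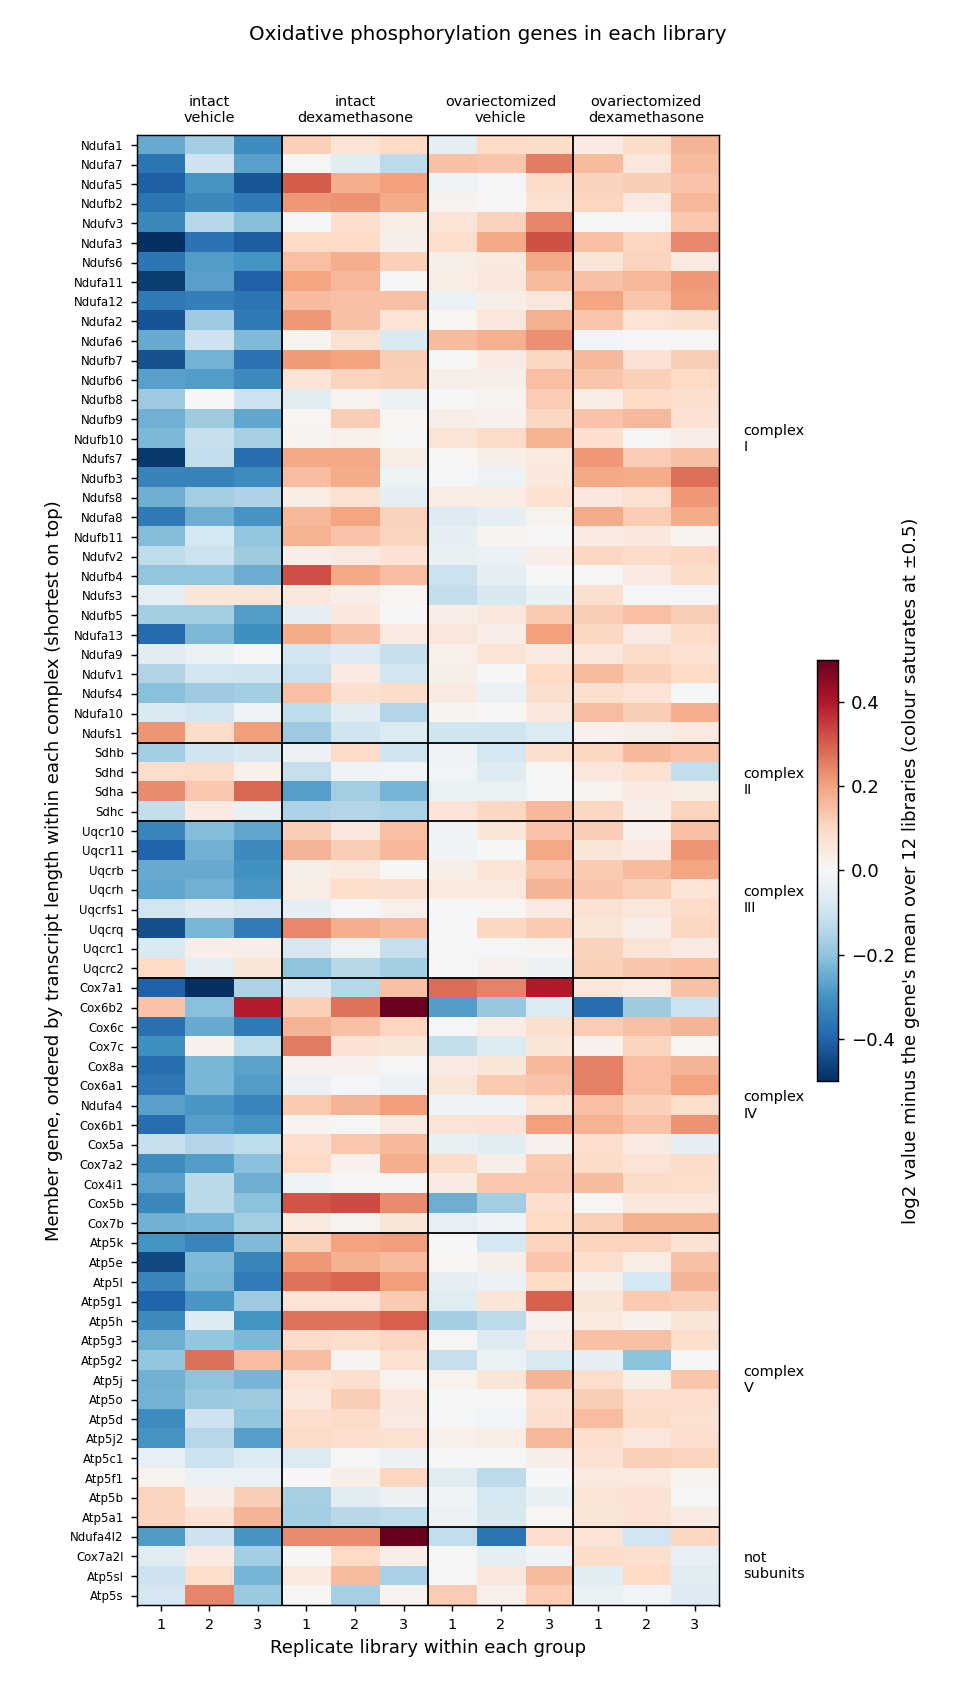
Log2 level of 75 of the 76 genes in each of the 12 libraries, as the difference from the gene's own mean over the libraries (colour saturates at ±0.5), with genes grouped by complex and ordered by transcript length within it, shortest on top. The 3 intact vehicle columns lie below the mean for most genes of complexes I, III, IV and V and above it for a few long ones such as Ndufs1 and Sdha.

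The position of the intact vehicle libraries can be read without a test. In 49 of 76 members all 3 of these libraries lay below all 9 others, which held for 9.7% of all genes. In Ndufs1 and Sdha all 3 lay above the other 9, which held for 11.8% of all genes. The mean of intact vehicle was the lowest of the 4 groups in 61 members (80.3%) and in 29.3% of all genes. Summarised per library, the median difference of the members from their own means was -0.25, -0.17 and -0.22 in intact vehicle. It was 0.059, 0.08 and 0.045 in intact dexamethasone, -0.0025, 0.016 and 0.085 in ovariectomized vehicle, and 0.092, 0.077 and 0.1 in ovariectomized dexamethasone. The intact vehicle libraries thus stood apart from the other 9, and as deposited the range of each other group overlapped that of another. In the length-adjusted values, described next, intact vehicle was again lowest (-0.1 to -0.077), and ovariectomized dexamethasone (0.053 to 0.076) lay above intact dexamethasone (0.017 to 0.031) and ovariectomized vehicle (-0.036 to 0.017).

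Transcript length moved with this pattern. The members are short, with a median of 744 bases against 2700 for all genes tested. Over all genes with a length, the Spearman correlation between a library's deviation from the gene means and transcript length was 0.36, 0.11 and 0.34 in the intact vehicle libraries and between -0.22 and 0.02 in the other 9. The median deviation of all genes of up to 600 bases was -0.25, -0.12 and -0.26 in the intact vehicle libraries and between 0.03 and 0.12 in the others. Each comparison was therefore repeated on values freed, library by library, of their trend on length and GC content, here called the length-adjusted fit. In it 36 members rose with dexamethasone in intact females and 9 fell, median 0.12, beside 23.5% and 24.2% of all genes, and all 36 were among the 53. In ovariectomized against intact vehicle, 23 members were higher and 6 lower, median 0.073, beside 8.41% and 9.6%, and all 23 were among the 49. Within the members a relation to length remained in this fit. The Spearman correlation of their fold changes with length was -0.4 with dexamethasone in intact females (-0.64 as deposited). It was -0.36 in ovariectomized against intact vehicle (-0.66) and 0.49 for the difference between the dexamethasone responses (0.7). Whether calls that held in this fit still follow length was not tested.

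**Figure D2:**
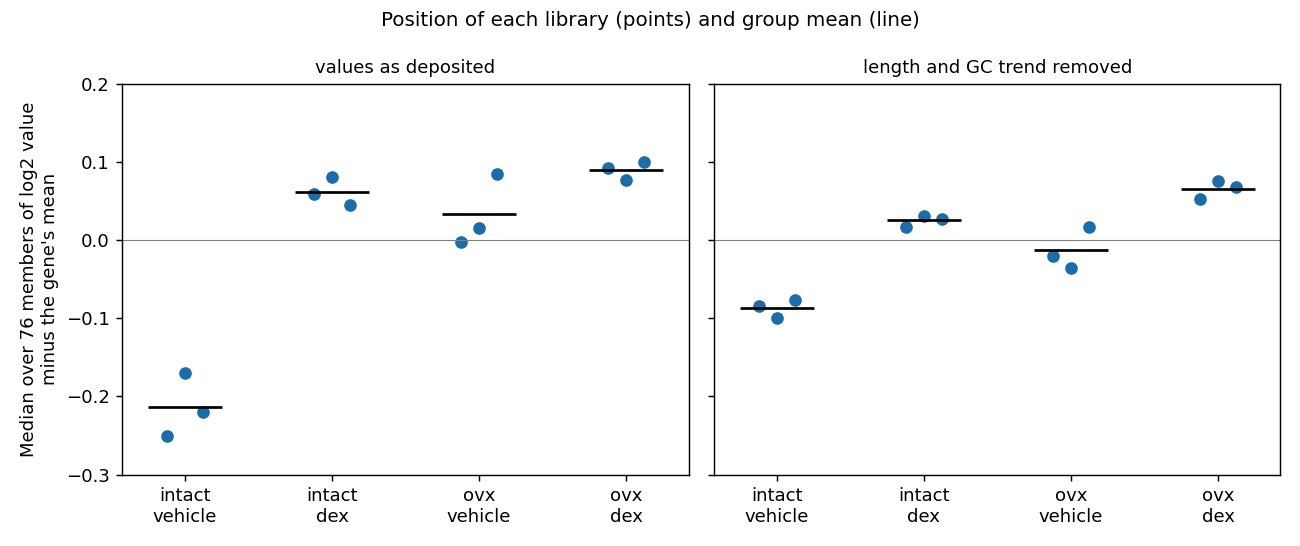
Median over the 76 genes of the log2 level minus the gene's mean, with 1 point per library and a line at the group mean (dex, dexamethasone; ovx, ovariectomized), as deposited and with the trend on length and GC content removed. The 3 intact vehicle libraries are the lowest of the 12 in both, between -0.25 and -0.17 as deposited and between -0.1 and -0.077 with the trend removed, where ovariectomized dexamethasone is highest (0.053 to 0.076).

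Members were also set beside other genes of similar transcript length. With dexamethasone in intact females, 24 of 25 members of up to 600 bases rose (96.0%), against 53.8% of 236 other genes, with medians of 0.38 and 0.29. Above 600 and up to 1000 bases 24 of 26 members rose (92.3%) against 39.7% of 804 genes, with medians of 0.32 and 0.15. Above 1000 and up to 1800 bases the shares were 5 of 18 members (27.8%) and 30.0% of 2383 genes. Above 1800 bases 0 of 7 members rose and 5 fell, while 18.4% of 9399 other genes rose and 30.5% fell. In ovariectomized against intact vehicle, 23 of 25 members of up to 600 bases were higher against 41.9% of other genes, and 19 of 26 in the next class against 34.3%. These classes were chosen after the length trend had been seen, and the difference between members and other genes was not tested.

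**Figure D3:**
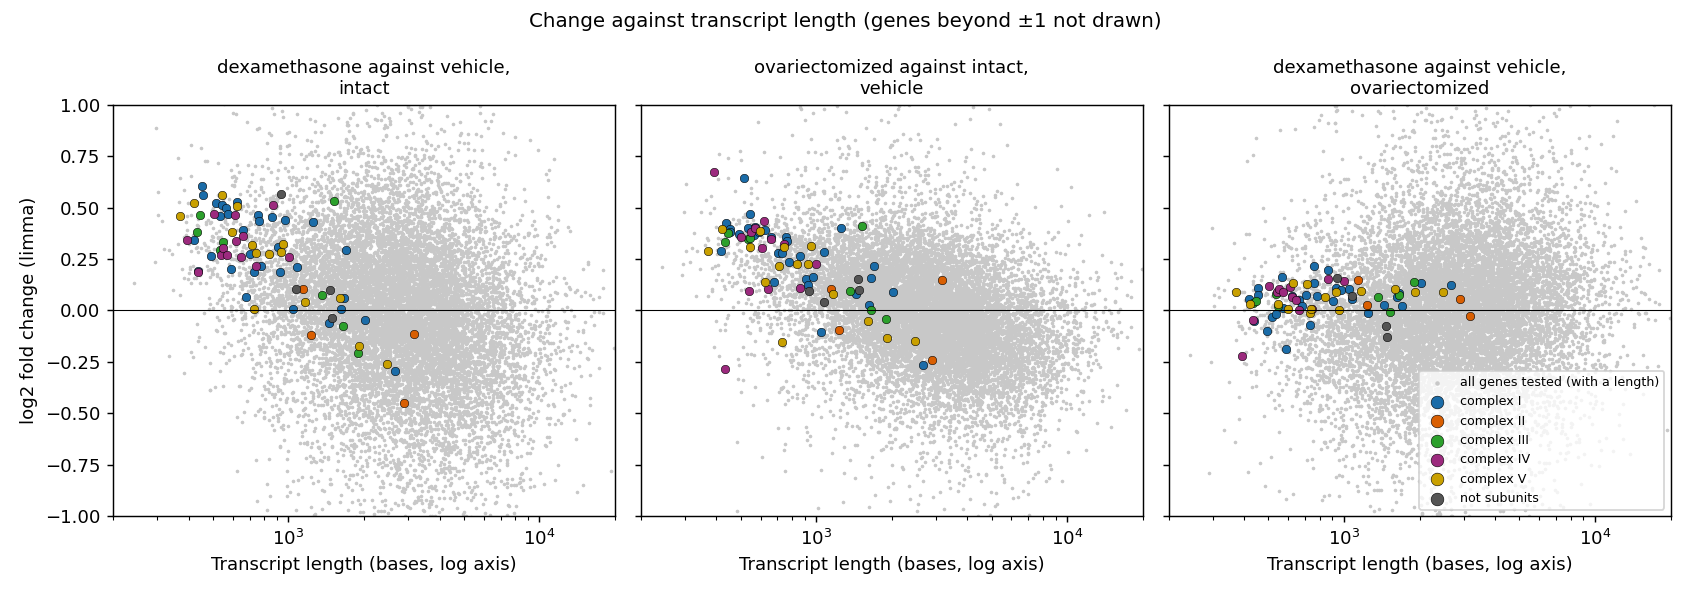
Log2 fold change against transcript length (log axis) for all genes with a length (grey; genes beyond ±1 not drawn) and the members coloured by complex, in dexamethasone against vehicle in intact females, ovariectomized against intact under vehicle, and dexamethasone against vehicle in ovariectomized females. In the first 2 comparisons most members of up to 1000 bases lie above 0 and most of the 7 above 1800 bases below it, with Cox6b2 (-0.28) and Sdhc (0.15) among the exceptions in the second (Spearman -0.64 and -0.66 over 76 members), while in ovariectomized females members of every length lie near 0 (0.18).

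Complex I, the entry point for NADH, held the largest rise of any subunit. In intact females 25 of its 32 subunits rose with dexamethasone and 1 fell, median 0.3, and 19 of the 25 also rose in the length-adjusted fit. Ndufa5, an accessory subunit of the matrix arm (Entrez 68202, transcript of 453 bases), had log2 levels of 10.73, 10.84 and 10.71 in intact vehicle and 11.44, 11.32 and 11.34 in intact dexamethasone. In ovariectomized females it stood at 11.11, 11.13 and 11.23 with vehicle and 11.25, 11.26 and 11.28 with dexamethasone. Intact vehicle was the lowest group, with no overlap with any other. The rise with dexamethasone in intact females was 0.6 ± 0.0533 (1.52-fold, limma adjusted p = 9.51e-06), and 0.41 in the length-adjusted fit.

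Other accessory subunits of the membrane arm had the same lowest group. Ndufb2 stood at 10.55, 10.59 and 10.56 in intact vehicle and 11.13, 11.14 and 11.1 in intact dexamethasone, a rise of 0.56 ± 0.0443, though 33.5% of its 50-base words also occur in other genes. Ndufb7 stood at 10.89, 11.09 and 10.96 in intact vehicle and 11.54, 11.53 and 11.45 in intact dexamethasone, a rise of 0.53 ± 0.0564 (adjusted p = 3.04e-05 in limma). The groups did not overlap in either gene. Ndufa3 went from 10.52, 10.69 and 10.65 to 11.16, 11.16 and 11.09, a rise of 0.52 ± 0.0659. Its levels in ovariectomized vehicle were 11.15, 11.25 and 11.38, which is 0.64 ± 0.0659 above intact vehicle (1.56-fold, limma adjusted p = 0.000173; 0.45 in the length-adjusted fit). Ndufa3 was thus about as high in ovariectomized vehicle as in intact dexamethasone. Ndufa11, which helps to hold the membrane arm together, stood at 10.35, 10.55 and 10.42 in intact vehicle and 10.86, 10.88 and 10.98 in ovariectomized vehicle, higher by 0.47 ± 0.0646.

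Within complex I the accessory subunits and the 7 nuclear core subunits, which carry the flavin and the iron-sulphur clusters, differed in their counts. Of 25 accessory subunits 22 rose with dexamethasone in intact females and 0 fell (median 0.39), whereas 3 of 7 core subunits rose and 1 fell (median 0.061). The core transcripts are longer, with a median of 1050 bases against 659, and no test compared the classes. The core subunits that rose were Ndufs7 (0.47 ± 0.0802), Ndufs8 (0.22 ± 0.0539) and Ndufv2 (0.19 ± 0.041), and the call of Ndufs8 was lost in the length-adjusted fit (0.021, adjusted p = 0.754). Ndufs1, the largest core subunit (Entrez 227197, transcript of 2661 bases), fell. Its levels were 11.89, 11.76 and 11.88 in intact vehicle and 11.49, 11.57 and 11.6 in intact dexamethasone. They were 11.57, 11.57 and 11.6 in ovariectomized vehicle and 11.69, 11.7 and 11.72 in ovariectomized dexamethasone, so intact vehicle was the highest group. The fold change was -0.29 ± 0.0477 with dexamethasone in intact females (0.817-fold, limma adjusted p = 0.000456) and -0.26 ± 0.0477 for ovariectomized against intact vehicle. Both calls held in the length-adjusted fit, at -0.22 and -0.18. Among core subunits that did not pass in intact females, Ndufv1 differed by 0.061 ± 0.0521 and Ndufs3 by 0.0056 ± 0.0489. Ndufs3 fell in the length-adjusted fit (-0.12, adjusted p = 0.0363).

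Complex II, which is both succinate dehydrogenase of the TCA cycle and an entry point of the chain, held no rise with dexamethasone in intact females. Sdha, the flavoprotein that oxidizes succinate (Entrez 66945, transcript of 2900 bases), had levels of 13.93, 13.83 and 13.98 in intact vehicle and 13.42, 13.52 and 13.46 in intact dexamethasone. In ovariectomized females it stood at 13.66, 13.66 and 13.69 with vehicle and 13.71, 13.74 and 13.73 with dexamethasone. Intact vehicle was its highest group and intact dexamethasone its lowest, with no overlap. The fold change with dexamethasone in intact females was -0.45 ± 0.052 (0.733-fold, limma adjusted p = 5.16e-05), and -0.38 in the length-adjusted fit. Sdha was also lower in ovariectomized than in intact vehicle (-0.24 ± 0.052). With dexamethasone in intact females the iron-sulphur subunit Sdhb differed by 0.1 ± 0.0604, and the membrane anchors Sdhc and Sdhd by -0.12 ± 0.051 and -0.12 ± 0.059, none past the threshold. Sdhd fell in the length-adjusted fit (-0.17, adjusted p = 0.024). Sdhc was higher in ovariectomized than in intact vehicle by 0.15 ± 0.051 (adjusted p = 0.0491 in limma). That call was lost in 11 of 12 fits with 1 library left out (adjusted p from 0.0539 to 0.181) and kept without intact vehicle replicate 2.

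Complex III, the cytochrome bc1 complex, divided between its small subunits and its large core proteins. The core proteins Uqcrc1 and Uqcrc2 have transcripts of 1653 and 1896 bases, against a median of 955 for the complex. Whether the division follows length was not tested. In intact females 5 of 8 subunits rose with dexamethasone and 1 fell, median 0.32. Uqcrq, a small accessory subunit (Entrez 22272), stood at 12.59, 12.8 and 12.68 in intact vehicle and 13.27, 13.21 and 13.19 in intact dexamethasone. Its ovariectomized levels were 13.03, 13.13 and 13.16 with vehicle and 13.09, 13.06 and 13.13 with dexamethasone, so intact vehicle lay below all other libraries. The rise was 0.53 ± 0.0599 (1.44-fold, limma adjusted p = 4.38e-05), and 0.5 in the length-adjusted fit, where its reference transcript counts as 1521 bases. Uqcr11 and Uqcr10, the smallest subunits, rose by 0.47 ± 0.0694 and 0.38 ± 0.0569, and neither call held in the length-adjusted fit (0.15, adjusted p = 0.0612, and 0.1, adjusted p = 0.106). Uqcrh, the hinge protein beside cytochrome c1, rose by 0.34 ± 0.0472, and Uqcrb by 0.3 ± 0.0434.

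The core protein Uqcrc2, of which 24.8% of the 50-base words also occur in other genes, went the other way. It stood at 13.18, 13.03 and 13.14 in intact vehicle and 12.88, 12.94 and 12.91 in intact dexamethasone, without overlap, a fold change of -0.21 ± 0.0484 (adjusted p = 0.00441 in limma). With quantile normalization this call was lost (-0.051, adjusted p = 0.365). The other core protein Uqcrc1 differed by -0.076 ± 0.0491 and the Rieske iron-sulphur protein Uqcrfs1 by 0.076 ± 0.0426, neither past the threshold. Uqcrc1 fell in the length-adjusted fit (-0.19, adjusted p = 0.00283).

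Complex IV, cytochrome c oxidase, has its catalytic centres in mitochondrially encoded subunits, so its members here surround that core. Of the 13 genes 12 rose with dexamethasone in intact females and 0 fell, median 0.3, and 6 of the 12 also rose in the length-adjusted fit. The gene that did not pass was Cox6b2 (0.19 ± 0.152). Cox5b, which binds zinc on the matrix side, rose by 0.51 ± 0.0788 and Cox6c by 0.47 ± 0.0479, with 25.9% and 21.1% of their words shared with other genes. Ndufa4 stood at 13.09, 13.07 and 13.03 in intact vehicle and 13.49, 13.53 and 13.57 in intact dexamethasone. Its ovariectomized levels were 13.34, 13.34 and 13.43 with vehicle and 13.51, 13.48 and 13.45 with dexamethasone, so intact vehicle was again lowest without overlap. It rose by 0.47 ± 0.0473 (1.38-fold, limma adjusted p = 2.25e-05; 0.34 in the length-adjusted fit). Cox4i1 and Cox5a, which join the core early in assembly, rose by 0.21 ± 0.0523 and 0.26 ± 0.0485. Neither call held in the length-adjusted fit (-0.0049, adjusted p = 0.938, and 0.12, adjusted p = 0.0568).

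In ovariectomized against intact vehicle, 9 of 13 complex IV genes were higher and 0 lower. Cox6b1, which faces the intermembrane space, had levels of 12.27, 12.37 and 12.35 in intact vehicle and 12.71, 12.72 and 12.85 in ovariectomized vehicle. The groups did not overlap, and the difference was 0.43 ± 0.0514 (1.35-fold, limma adjusted p = 0.000337), and 0.27 in the length-adjusted fit. Cox6a1 was higher by 0.4 ± 0.0495, without a call in the length-adjusted fit (0.11, adjusted p = 0.109). Cox7a1, the isoform known from heart and skeletal muscle, had the largest difference among the members in this comparison, at a low level. It stood at 5.43, 5.29 and 5.68 in intact vehicle and 6.11, 6.08 and 6.23 in ovariectomized vehicle, higher by 0.67 ± 0.112 (1.59-fold, limma adjusted p = 0.0018). In the length-adjusted fit this difference was 0.39 (adjusted p = 0.0508). With dexamethasone its levels were 5.76, 5.69 and 5.98 in intact and 5.89, 5.87 and 5.98 in ovariectomized females. The rise with dexamethasone in intact females, 0.34 ± 0.112, was lost without intact vehicle replicate 1 or 2 or intact dexamethasone replicate 3 (adjusted p from 0.0666 to 0.0923), and was 0.055 in the length-adjusted fit (adjusted p = 0.739).

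**Figure D4:**
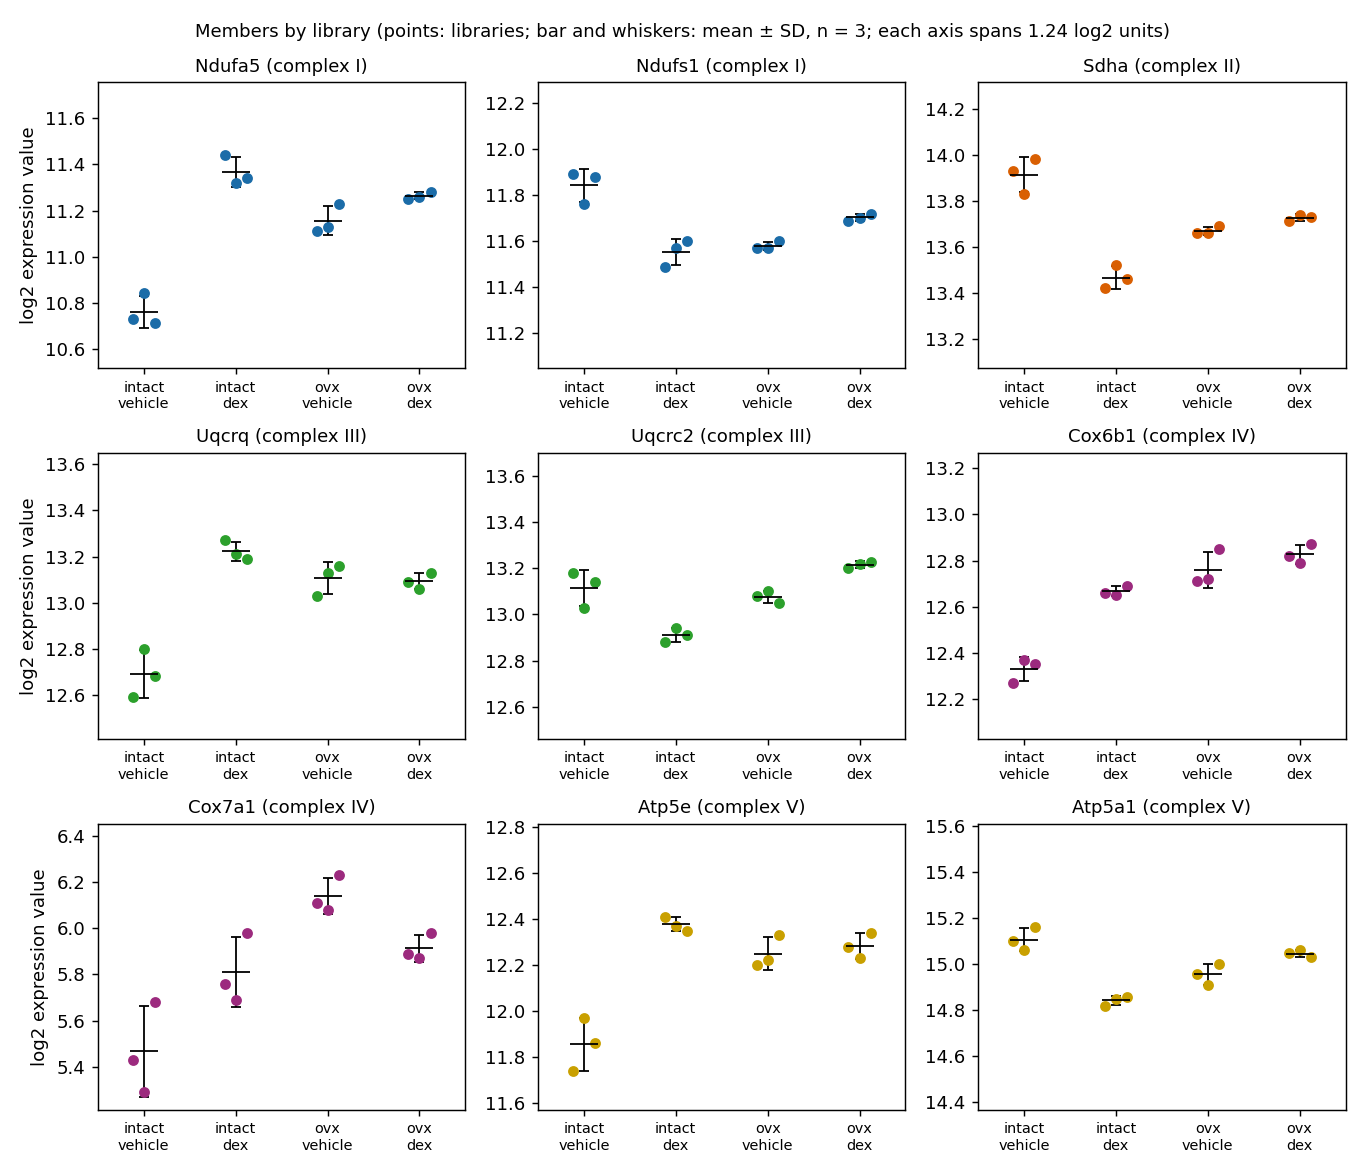
Log2 levels of 9 members by library (points) with the group mean and SD (bar and whiskers, n = 3; dex, dexamethasone; ovx, ovariectomized). Intact vehicle is the lowest group for Ndufa5, Uqcrq, Cox6b1, Cox7a1 and Atp5e, and the highest for Ndufs1, Sdha and Atp5a1.

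Complex V, the ATP synthase, divided between its small subunits and its catalytic head. The head subunits Atp5a1 and Atp5b have transcripts of 2471 and 1916 bases, against a median of 742 for the complex. Whether the division follows length was not tested. With dexamethasone in intact females 10 of 15 genes rose and 2 fell, median 0.28, and 7 of the 10 rose also in the length-adjusted fit. Atp5e, the epsilon subunit of the central stalk (Entrez 67126, transcript of 421 bases), stood at 11.74, 11.97 and 11.86 in intact vehicle and 12.41, 12.37 and 12.35 in intact dexamethasone. With ovariectomy its levels were 12.2, 12.22 and 12.33 under vehicle and 12.28, 12.23 and 12.34 under dexamethasone. Intact vehicle lay below all other libraries, and the rise in intact females was 0.52 ± 0.0625 (1.43-fold, limma adjusted p = 6.59e-05; 0.24 in the length-adjusted fit). Atp5h, part of the peripheral stalk, rose by 0.51 ± 0.0697 and Atp5l, subunit g of the membrane part, by 0.56 ± 0.0818, with 50.5% and 84.8% of their words shared with other genes. Atp5o, the peripheral stalk subunit OSCP, rose by 0.27 ± 0.0432.

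The catalytic head did not rise. Atp5a1, the alpha subunit (Entrez 11946, transcript of 2471 bases), stood at 15.1, 15.06 and 15.16 in intact vehicle and 14.82, 14.85 and 14.86 in intact dexamethasone. In ovariectomized females its levels were 14.96, 14.91 and 15.0 with vehicle and 15.05, 15.06 and 15.03 with dexamethasone. Intact dexamethasone was the lowest group, and the fold change in intact females was -0.26 ± 0.0558 (adjusted p = 0.00254 in limma). The call held in the length-adjusted fit (-0.24) but not with quantile normalization (-0.028, adjusted p = 0.741). Atp5b, the catalytic beta subunit, fell by 0.17 ± 0.063 on the log2 scale (adjusted p = 0.0404 in limma). That call was lost with quantile normalization (-0.037, adjusted p = 0.674) and in 8 of 12 fits with 1 library left out (adjusted p from 0.0507 to 0.157). The gamma subunit Atp5c1 differed by 0.04 ± 0.0436 and did not pass.

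The response to dexamethasone was lower in ovariectomized than in intact females for 38 members, beside 9.65% of all genes, and higher for 5, beside 15.3%, with a median difference of -0.24. This difference also contains the intact vehicle libraries, so it is not independent of the comparisons within intact females and under vehicle. For Ndufa5 the response was 0.6 in intact and 0.11 ± 0.0533 in ovariectomized females, a difference of -0.5 ± 0.0754 (adjusted p = 0.00131 in limma). For Uqcrq the responses were 0.53 and -0.0092 ± 0.0599, a difference of -0.54 ± 0.0848 (adjusted p = 0.00153 in limma). Ndufa3 differed by -0.56 ± 0.0931 and Atp5e by -0.49 ± 0.0884. The 5 genes with the higher response in ovariectomized females were Sdha (0.5 ± 0.0735), Ndufs1 (0.41 ± 0.0675), Atp5a1 (0.35 ± 0.0789), Uqcrc2 (0.34 ± 0.0684) and Atp5b (0.26 ± 0.0891). Of these, the calls of Sdha and Ndufs1 held with quantile normalization, and that of Atp5b was lost in 10 of 12 fits with 1 library left out (adjusted p from 0.0608 to 0.122).

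By complex, the response was lower in ovariectomized females for 18 of 32 complex I genes, all of them accessory subunits, for 5 of 8 of complex III, 7 of 13 of complex IV and 8 of 15 of complex V, and for 0 of 4 of complex II. The length-adjusted fit left 12 members with a lower and 9 with a higher response (7.28% and 11.4% of all genes), median -0.058. All 12 were among the 38: Ndufa2, Ndufa3, Ndufa5, Ndufb2, Ndufb6 and Ndufs4 of complex I, Uqcrq of complex III, Ndufa4 and Cox6c of complex IV, and Atp5e, Atp5j2 and Atp5l of complex V. The 5 genes with a higher response all kept their calls in it.

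Few members moved with dexamethasone in ovariectomized females. The 6 that rose were the complex I accessory subunits Ndufb3 (0.21 ± 0.0574), Ndufa8 (0.2 ± 0.0466), Ndufa12 (0.16 ± 0.0441) and Ndufa10 (0.13 ± 0.043), with Cox7b of complex IV (0.14 ± 0.0479) and Uqcrc2 (0.14 ± 0.0484). Ndufa8 stood at 11.45, 11.47 and 11.53 with vehicle and 11.7, 11.64 and 11.7 with dexamethasone, without overlap (adjusted p = 0.00601 in limma). Ndufa6, an accessory subunit at the joint of both arms, was the one member that fell, from 12.46, 12.48 and 12.53 to 12.29, 12.3 and 12.31 (-0.19 ± 0.0533, limma adjusted p = 0.0152). Of these 7 calls, that of Ndufa8 was kept whichever library was left out. The count of rises was 2 without ovariectomized vehicle replicate 1 or ovariectomized dexamethasone replicate 3, 3 without ovariectomized vehicle replicate 2 and 10 without ovariectomized vehicle replicate 3, where Ndufa6 lost its call (adjusted p = 0.0532). Among all 12965 genes the rises in these fits were 2065, 2212, 2565 and 2294, in the same order. In the length-adjusted fit 21 members rose and 1 fell, beside 22.6% and 20.1% of all genes, median 0.079, and the 6 were among the 21.

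Under dexamethasone, 5 of the 7 members above 1800 bases were higher without ovaries, beside 8.86% of other genes of that length. Uqcrc2 stood at 12.88, 12.94 and 12.91 in intact and at 13.2, 13.22 and 13.23 in ovariectomized females, a difference of 0.3 ± 0.0484 (1.23-fold, limma adjusted p = 0.00645). Ndufa10, an accessory subunit of complex I with a transcript of 2020 bases, stood at 11.92, 11.99 and 11.9 against 12.2, 12.17 and 12.23, higher by 0.27 ± 0.043. Neither gene's groups overlapped, and Uqcrc2 shares 24.8% of its words with other genes. Sdha and Sdhc were higher by 0.26 ± 0.052 and 0.24 ± 0.051, and each call was lost without intact dexamethasone replicate 1 or ovariectomized dexamethasone replicate 3 (adjusted p from 0.0599 to 0.0761). The other 5 were Cox6a1, Atp5a1, Cox8a, Ndufv1 and Ndufa9, with differences from 0.17 to 0.22. Cox6b2 (-0.52 ± 0.152) and Atp5h (-0.24 ± 0.0697) were lower, with adjusted p of 0.0452 and 0.0459 in limma.

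Of these 11 calls, those of Uqcrc2 and Ndufa10 were kept whichever library was left out, and neither was kept with quantile normalization (0.14 for both, adjusted p = 0.0814 and 0.0665), under which 0 members were higher and 8 lower. Under that normalization 400 of all 12965 genes were higher and 368 lower. The count of higher members was 2 without intact dexamethasone replicate 1 or ovariectomized dexamethasone replicate 3 (204 and 145 of all 12965 genes). It was 5 without intact dexamethasone replicate 3 or ovariectomized dexamethasone replicate 1 or 2 (782, 575 and 671 of all genes). In the length-adjusted fit 14 members were higher and 2 lower, beside 8.69% and 5.64% of all genes.

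Levels per kilobase of transcript allow the members to be set beside each other. On this log2 scale the members had a median level of 12.1, against 7.35 for all genes tested with a length, and ran from 5.9 (Atp5g2) to 14.49 (Atp5g3). The levels of complex II ran from 10.69 (Sdhc) to 12.77 (Sdhb) and those of complex III from 11.94 (Uqcrb) to 13.44 (Uqcrh). Complexes I, IV and V reached lower, to Ndufb4 (6.32), Cox6b2 (5.95) and Atp5g2 (5.9). Ndufb4 and Atp5g2 share 37.0% and 87.4% of their words with other genes, and whether reads were lost to copies was not tested. In all, 19 members shared at least 20% of their words, and their values are uncertain. Beside genes so marked elsewhere, they included Uqcrb (43.4%), Atp5o (34.0%), Cox5a (32.0%), Ndufa12 (53.8%), Ndufb6 (34.1%) and Ndufs3 (39.7%). Over the other 57 members, 38 rose and 4 fell in intact females given dexamethasone, and 39 were higher and 2 lower in ovariectomized than in intact vehicle.

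Several subunits exist as isoforms encoded by separate genes. Per kilobase, the log2 level of Cox6b1 was 13.34 and that of Cox6b2, known from testis, 5.95. That of Cox7a2 was 12.71, of the muscle isoform Cox7a1 7.18 and of the related supercomplex factor Cox7a2l 11.17. Liver thus held far more of the widely expressed isoform in both sets. Cox4i2, the lung isoform of Cox4i1, had deposited log2 levels from 2.2 to 2.99, and the muscle isoforms Cox6a2 and Cox8b lay between 1.02 and 1.27 and between -1.31 and -1.25. Cox7b2, Cox8c and Ndufs5 were listed at 0 in every library. Ndufs5 is a complex I subunit that cells in general use, and 41.2% of its words occur in other genes. Its listing at 0 is not taken as a measure of its expression, and why it stands at 0 was not tested.

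The genes of the c-ring, the rotor of complex V, encode the same mature protein. Per kilobase their log2 levels were 14.49 (Atp5g3), 12.28 (Atp5g1) and 5.9 (Atp5g2), of which 0%, 66.0% and 87.4% of the words are shared with other genes. With dexamethasone in intact females Atp5g3 rose by 0.32 ± 0.0492, from 13.76, 13.81 and 13.78 to 14.1, 14.09 and 14.11. Atp5g1 rose by 0.38 ± 0.0813, without a call in the length-adjusted fit (0.14, adjusted p = 0.168), and Atp5g2 differed by 0.0052 ± 0.116.

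Of the 4 genes set apart, Ndufa4l2, a hypoxia-induced relative of Ndufa4, rose with dexamethasone in intact females. It stood at 5.99, 6.17 and 5.98 with vehicle and 6.51, 6.51 and 6.82 with dexamethasone, a rise of 0.57 ± 0.125 (adjusted p = 0.00289 in limma). In ovariectomized females it stood at 6.15, 5.91 and 6.36 with vehicle and 6.34, 6.18 and 6.38 with dexamethasone, which overlap. Cox7a2l (0.11 ± 0.0588), Atp5sl (0.1 ± 0.0937) and Atp5s (-0.039 ± 0.099) did not pass, and none of the 4 passed in another comparison as deposited.

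Genes that work with these subunits were read from further lists, whose counts stand beside 22.8% of all genes rising and 25.9% falling with dexamethasone in intact females and 21.3% and 19.4% in ovariectomized females. Of 8 nuclear genes of the chain whose symbols the pattern misses, 7 rose with dexamethasone in intact females and 0 fell. Cycs, cytochrome c, rose by 0.86 ± 0.0912 and the complex I subunit Ndufc1 by 0.44 ± 0.0435. In ovariectomized females 1 of the 8 rose, Cycs (0.29 ± 0.0912), and 1 fell, Atpif1, the inhibitor of ATP synthase (-0.28 ± 0.0745). Of 13 complex I assembly factors 3 rose and 3 fell in intact females, near the shares of all genes, and 2 rose and 1 fell in ovariectomized females. Ndufaf4 and Foxred1 rose in both, by 0.64 ± 0.0657 and 0.4 ± 0.0773 in intact and by 0.54 ± 0.0657 and 0.4 ± 0.0773 in ovariectomized females. Of 18 complex IV assembly factors 9 rose and 5 fell in intact females and 7 rose and 1 fell in ovariectomized females. Coa6, which takes part in copper delivery, rose by 0.88 ± 0.0707 and 1.21 ± 0.0707. Taco1 and Lrpprc, which serve the translation and stability of mitochondrial messages, fell in intact females by 0.56 ± 0.0691 and 0.5 ± 0.0579 on the log2 scale, and Taco1 rose in ovariectomized females (0.31 ± 0.0691).

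The TCA cycle, which feeds the chain, had other counts. Of 19 genes of the cycle and of pyruvate dehydrogenase 4 rose and 8 fell in intact females given dexamethasone, while 11 rose and 1 fell in ovariectomized females. The response was higher in ovariectomized females for 9 and lower for 1, beside 15.3% and 9.65% of all genes. Idh3a, a subunit of isocitrate dehydrogenase, rose in both, by 0.53 ± 0.0908 in intact and by 0.8 ± 0.0908 in ovariectomized females. Its difference between the responses did not pass (0.27 ± 0.128, adjusted p = 0.139 in limma). Fumarase (Fh1) rose by 0.51 ± 0.0612 in ovariectomized females. Pdha1, of pyruvate dehydrogenase, fell by 0.63 ± 0.0662 on the log2 scale in intact females. The transcripts of this list have a median of 2520 bases, and in the length-adjusted fit 6 rose and 8 fell in intact females and 11 rose and 1 fell in ovariectomized females.

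Regulators of mitochondrial biogenesis moved in both directions. Of 22 tested 3 rose and 7 fell in intact females, beside 22.8% and 25.9% of all genes, and 9 rose and 3 fell in ovariectomized females, beside 21.3% and 19.4%. Esrra, an oestrogen-related receptor known to act on many subunit genes, rose in both, by 0.44 ± 0.0746 and 0.3 ± 0.0746. The coactivator Ppargc1a had levels of 8.91, 8.85 and 8.73 in intact vehicle and 9.22, 8.57 and 9.91 in intact dexamethasone, which overlap (adjusted p = 0.205 in limma). In ovariectomized females it went from 8.41, 8.82 and 8.91 to 9.46, 9.4 and 9.32, a rise of 0.68 ± 0.25 (adjusted p = 0.047 in limma). The corepressor Nrip1 fell by 1.03 ± 0.108 on the log2 scale in intact and rose by 0.64 ± 0.108 in ovariectomized females, a difference of 1.66 ± 0.152. The nuclear receptor Ppara fell in both, by 1.2 ± 0.108 and 0.45 ± 0.108 on the log2 scale. Gabpa (-0.27 ± 0.0643) and Tfam (-0.17 ± 0.0556), which binds mitochondrial DNA, fell in intact females, calls that were lost in the length-adjusted fit (-0.12, adjusted p = 0.082, and -0.033, adjusted p = 0.669). Nrf1 rose in ovariectomized females (0.18 ± 0.059).

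Ribosomal proteins are likewise encoded by short transcripts, and both kinds were set beside the members. Of 77 mitochondrial ribosomal proteins (median transcript 1220 bases) 41 rose and 2 fell in intact females given dexamethasone, median 0.18, and 34 were higher and 2 lower in ovariectomized than in intact vehicle, median 0.16. In the length-adjusted fit these counts were 32 and 7, and 13 and 1. Of 81 cytosolic ribosomal proteins (791 bases) 58 rose and 1 fell in intact females given dexamethasone, median 0.38, and 43 and 2 in the length-adjusted fit. In ovariectomized against intact vehicle 14 of the 81 were higher and 12 lower, median 0.054, beside 12.4% and 15.5% of all genes, and 7 were higher and 23 lower in the length-adjusted fit. Under dexamethasone 2 of the 81 were higher and 38 lower in ovariectomized than in intact females. Of the 76 members 9 were higher and 2 lower there, beside 7.74% and 5.08% of all genes. The difference between the lists was not tested.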

How the data were processed

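Liver RNA of 12 libraries was extracted with TRIzol and RNeasy columns and sequenced on a NextSeq instrument from TruSeq libraries, per the labels' protocols. The submitters' processing notes name Trim Galore, TopHat2, HTSeq, DESeq, DESeq2 and the build mm9, without versions. The values deposited by the authors are log2 levels of HTSeq counts after DESeq normalization, per the labels. Neither the formula behind them nor the annotation is stated in the sources used here, and shrinkage at low levels would understate fold changes there.

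A symbol listed more than once was represented by its highest entry, and genes with a mean of at least 4 were tested. All 4 groups entered 1 model in limma 3.58.1 (R 4.3.3; eBayes with a variance trend, 8 residual degrees of freedom), and p-values were adjusted by Benjamini-Hochberg over 12965 genes, without a minimum fold. The fit was tested on simulated data with independent noise and no length trend, so that test does not bear on the length trend seen here. The length-adjusted fit removed from each library a spline (4 degrees of freedom) on transcript length and GC content of GRCm38 transcripts. Transcripts were matched by Entrez identifier, or by symbol where that gave none, for 12898 genes (99.5%). Lengths and the share of 50-base words found in other genes (20% or more marked as uncertain) come from the same transcripts. Levels per kilobase subtract the log2 length. Coordinates are those of RefSeq's promoter table, and no coordinate of mm9 is given.

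Named were the core and isoform genes, and for each complex and comparison up to 3 members with the largest rise and 3 with the largest fall among those that passed without overlap of libraries. Of the further lists up to 3 genes a comparison were named by size, and a few regulators after their values were seen. Some genes that these rules take are not reported here, though counts include them. The members, lists and length classes were chosen with earlier results of these data known. The alternatives left the filter out or raised it to 6, added 8 to the linear values, recentred or quantile-normalized the libraries, dropped the variance trend, fitted only the libraries compared, used the length-adjusted fit, took the replicate number as a block alone or with that fit, or left out each library in turn.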

Additional observations from a re-analysis of the deposited data

Results flagged for a closer look

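The response to dexamethasone differed between ovariectomized and intact females for 43 members by limma's test of the difference itself (adjusted p under 0.05), lower in ovariectomized females for 38 and higher for 5. Among all genes tested 9.65% had a lower and 15.3% a higher response. The intact vehicle libraries enter this test too, so it is not a result separate from the comparisons that share them. Of the genes named, Cox7a1 (-0.57), Ndufa3 (-0.56), Uqcrq (-0.54), Atp5l (-0.53) and Ndufa5 (-0.5) had the lowest response relative to intact females on the log2 scale. They were followed by Atp5e (-0.49), Ndufb2 (-0.48), Ndufb7 (-0.46), Ndufa11 (-0.42), Uqcr11 (-0.42) and Ndufa6 (-0.39). The remaining differences in this direction were those of Atp5g1 (-0.38), Atp5h (-0.37), Cox5b (-0.36), Cox7a2 (-0.36), Ndufa4 (-0.35), Cox6c (-0.35), Uqcr10 (-0.34), Ndufa12 (-0.33), Atp5j2 (-0.32), Uqcrh (-0.32), Cox6b1 (-0.28), Ndufa8 (-0.26), Atp5o (-0.21) and Cox5a (-0.21). The response was higher in ovariectomized females for Atp5b (0.26), Uqcrc2 (0.34), Atp5a1 (0.35), Ndufs1 (0.41) and Sdha (0.5). Of these 30 calls 24 were kept whichever library was left out, and those of Cox5a, Cox5b, Atp5b, Atp5o, Cox7a1 and Atp5g1 were not. In the length-adjusted fit 16 of the 25 lower responses lost their call, among them Cox7a1 (-0.27, adjusted p = 0.296 in limma), Ndufb7 (-0.13, adjusted p = 0.091) and Ndufa11 (-0.1, adjusted p = 0.269), and the 5 higher ones kept theirs. In that fit 7.28% of all genes had a lower and 11.4% a higher response. With quantile normalization Cox7a1, Atp5a1, Uqcrc2 and Atp5b lost their calls. The cause of the differences was not tested.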

How the results depend on the processing

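Counts of members are given as higher and lower. With the length and GC trend removed they were 36 and 9 for dexamethasone in intact females, 21 and 1 in ovariectomized females, 23 and 6 for ovariectomized against intact vehicle, 14 and 2 under dexamethasone, and 9 and 12 for the difference between responses. Among all 12898 genes in that fit they were, in the same order, 3029 and 3124, 2910 and 2597, 1085 and 1238, 1121 and 727, and 1471 and 939. With the replicate block added to that fit, 8 members fell with dexamethasone in intact females, 17 rose in ovariectomized females, 23 were higher and 6 lower in ovariectomized vehicle, 14 higher under dexamethasone, and the difference gave 8 and 11. Among all 12898 genes these counts were, in the same order, 3116, 2843, 1028 and 1177, 998, and 1406 and 935. With quantile normalization 2 fell in intact females, 3 rose and 2 fell in ovariectomized females, 0 were higher and 8 lower under dexamethasone, and 2 responses were higher. Among all 12965 genes these counts were, in the same order, 3075, 2625 and 2558, 400 and 368, and 1419. Recentring left 3 rises in ovariectomized females, beside 2479 among all 12965 genes. Under dexamethasone, no filter left 0 lower (457 of all 18598 genes) and a mean of at least 6 left 1 (513 of 11006). No variance trend left 1 lower (679 of 12965), and only the libraries compared 4 higher (398 of 12965). Reversed were the median under dexamethasone (-0.0021 recentred, -0.088 quantile), Atp5a1 there (-0.053, quantile), and in both fits without the length trend Uqcrc1 in ovariectomized against intact vehicle (-0.15) and Cox4i1 (-0.0049), Cox6a1 (-0.0073), Ndufa6 (-0.0047) and Ndufa7 (-0.082) with dexamethasone in intact females, with Ndufs3 there (-0.12) in the fit without the block. Apart from what these alternatives do by construction, the cause was not tested.

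Leaving out 1 library in turn gave 50 to 53 and 4 to 5 with dexamethasone in intact females, 2 to 10 and 0 to 1 in ovariectomized females, 43 to 50 and 2 to 3 for ovariectomized against intact vehicle, 2 to 10 and 0 to 2 under dexamethasone, and 4 to 6 and 31 to 44 for the difference. Same-numbered libraries did not pair: over 18 pairs r ran from -0.23 to 0.4, 6 were over 0.1, and 5 of 12 libraries correlated best with their own number. The replicate block alone gave 52 and 4, 5 and 1, 46 and 2, 6 and 1, and 4 and 36. Among all 12965 genes it gave 2925 and 3316, 2661 and 2494, 1532 and 1918, 880 and 653, and 1906 and 1212. Of 125 calls of named members, 42 were lost and 4 turned in the length-adjusted fit, 19 and 1 with quantile normalization, and 12 and 0 with the block. The depth is unknown, so no counting interval or detection limit can be given.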

Other observations

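Further genes around the chain were read as values. Of 18 carriers and coenzyme Q genes 6 rose and 5 fell in intact females given dexamethasone, and 6 rose and 2 fell in ovariectomized females, beside 22.8% and 25.9% of all genes in intact and 21.3% and 19.4% in ovariectomized females. Coq10b, a coenzyme Q binding protein, fell by 0.39 ± 0.0819 on the log2 scale in intact and by 0.9 ± 0.0819 in ovariectomized females (limma adjusted p = 0.00207 and 1.68e-05). Coq9, which takes part in coenzyme Q synthesis, fell in intact females by 0.36 ± 0.0518. Pdss1, which makes the side chain of coenzyme Q, rose by 0.55 ± 0.0919 in ovariectomized females. Of 8 tested genes for uncoupling and other electron donors 1 rose and 4 fell in intact females. Gpd2, the mitochondrial glycerol phosphate dehydrogenase, fell there by 0.85 ± 0.165 on the log2 scale, and Sqrdl, which oxidizes sulphide, by 0.72 ± 0.0663. Prodh, proline dehydrogenase, rose by 0.75 ± 0.152 in ovariectomized females. Of 8 tested assembly factors of complexes II and III, Sdhaf1, Uqcc2 and Uqcc3 rose in intact females, by 0.53 ± 0.0841, 0.46 ± 0.0554 and 0.39 ± 0.0896, and 1 fell. Of 3 assembly factors of complex V, Atpaf1 fell in intact females (-0.35 ± 0.0818) and Tmem70 rose in ovariectomized females (0.21 ± 0.0548).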
